A study of Homo sapiens with 6 samples.

Results

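The transcripts of respiratory complex I were followed in MOLM13 acute myeloid leukemia cells after 24 h with ZW27941, a degrader of the RNA methyltransferase METTL3. The genes were chosen by symbol alone, as every deposited gene whose symbol starts with NDUFA, NDUFAB, NDUFB, NDUFC, NDUFS, NDUFV or NDUFAF and ends in a number, so that pseudogenes dropped out. This gave 45 of the 56305 genes, of which 38 were named as subunits and 7 as assembly factors (NDUFAF1 to NDUFAF7). All 45 passed the filter on low counts. The rule itself used no measured value, but it was set with earlier results of these data known.

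Complex I is the enzyme of the inner mitochondrial membrane that takes electrons from NADH, passes them along iron-sulfur clusters to ubiquinone, and pumps protons as it does so. Its peripheral arm reaches into the matrix and holds the NADH site and the ubiquinone site, whereas its membrane arm holds the proton pumps. The catalytic core is encoded partly in the nucleus and partly in mitochondrial DNA, supernumerary subunits surround it, and assembly factors help to build it without staying in the finished enzyme. Acute myeloid leukemia cells are known for a strong reliance on mitochondrial respiration.

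The promoters below are shown because their genes were among those with the lowest p, with NDUFS7 lower on ZW27941, NDUFB7 the subunit higher on it with the lowest p, and NDUFAF4 and NDUFAF1 the assembly factors with the lowest p. The sequences are RefSeq's, on GRCh38.p14, and each runs 180 bases from 150 before to 30 after the annotated start on the strand of the gene. NDUFS7 is at chr19:1383757-1383936 on the plus strand. On the minus strand, NDUFB7 is at chr19:14572037-14572216, NDUFAF4 at chr6:96897862-96898041 and NDUFAF1 at chr15:41402467-41402646. Capitals mark matches, on either strand, to GCGCATG (the core of the NRF1 motif), AAGATGG (YY1) and CCGGAAG (the ETS motif that GABPA binds), 3 motifs known from promoters of respiratory genes.
NDUFS7: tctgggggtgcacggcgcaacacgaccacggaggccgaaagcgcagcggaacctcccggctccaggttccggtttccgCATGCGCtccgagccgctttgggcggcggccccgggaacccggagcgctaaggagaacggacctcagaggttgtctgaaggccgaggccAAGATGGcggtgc
NDUFB7: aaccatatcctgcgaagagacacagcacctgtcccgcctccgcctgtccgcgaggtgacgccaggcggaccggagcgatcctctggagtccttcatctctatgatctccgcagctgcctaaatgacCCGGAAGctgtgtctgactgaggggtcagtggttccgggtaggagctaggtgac
NDUFAF4: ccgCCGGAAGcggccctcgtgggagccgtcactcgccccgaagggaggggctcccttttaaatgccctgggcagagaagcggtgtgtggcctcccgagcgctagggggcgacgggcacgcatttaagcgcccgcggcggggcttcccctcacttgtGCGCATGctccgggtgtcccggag
NDUFAF1: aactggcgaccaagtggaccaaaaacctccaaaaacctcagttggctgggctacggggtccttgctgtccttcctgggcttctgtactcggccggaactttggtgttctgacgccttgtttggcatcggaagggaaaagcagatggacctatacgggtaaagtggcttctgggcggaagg
The NDUFS7 promoter held an NRF1 match on the reverse strand and a YY1 match on the forward strand, the latter at base 18 of the transcript. The NDUFB7 promoter held an ETS match that began 24 bases before the start. In the NDUFAF4 promoter an ETS match lay far upstream and an NRF1 match lay just inside the transcript, and in the NDUFAF1 promoter none of the 3 motifs was found. Of the 45 genes, 38 had a promoter in the table. Over the 300 bases from 250 before to 50 after the start, NRF1 was matched in 6 of 32 subunit promoters (18.8%), in 2 of 6 NDUFAF promoters (33.3%) and in 4.67% of all 27305 RefSeq promoters. YY1 was matched in 7 of 32 subunit promoters (21.9%), in 0 of 6 NDUFAF promoters and in 6.06% of all promoters. Each of these 7 subunit promoters had a match on the forward strand that started within the first 30 bases of the transcript, as did 1.57% of all promoters. ETS was matched in 5 of 32 subunit promoters (15.6%), in 1 of 6 NDUFAF promoters (16.7%) and in 10.7% of all promoters. In some promoters, such as that of NDUFA8, the forward and reverse NRF1 matches overlap because the motif is nearly a palindrome. These matches are letters in a window and were not measured as bound sites.

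RNA was sequenced from 3 libraries of MOLM13 cells given DMSO, the solvent, and from 3 given 1 μM ZW27941. The line carries an internal tandem duplication in FLT3 and a t(9;11)(p22;q23) translocation in both groups, and each group stands for this 1 cell line at 1 dose and 1 time. ZW27941 acts on the METTL3 protein, so that the METTL3 transcript does not check the labels. The labels do not say that the libraries came from separate cultures, and the p-values then measure only the spread between these libraries, which may be technical. The deposited counts per gene summed to between 143454176 and 178744976 per library, and the common dispersion corresponded to a coefficient of variation of 3.11% between replicates. All 6 blood and myeloid markers of the check (PTPRC, SPI1, CD33, FLT3, MPO and LYZ) were expressed, 4 of them higher on ZW27941, and LYZ, which codes for lysozyme, went from 963 ± 31.2 to 1160 ± 34.7 CPM (counts scaled by TMM, the normalization of edgeR, to the same total in every library, mean ± SD, n = 3 per group). Of the markers of other cell types, HBB was at 0 in every library, CD3E, EPCAM and ALB were too low to be tested, and COL1A1 had group means of 0.999 and 1.02 CPM. Reads that fell on no annotated feature made up 11.91% to 12.36% of the reads tallied in DMSO and 10.5% to 11.37% on ZW27941. ZW27941 replicate 3 had the largest share of reads aligned to several places, 5.251%, against 3.63% to 4.073% in the others. The part of these shares in the results was not tested.

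Nuclear subunits of complex I were mostly a little lower on ZW27941, with exceptions in each arm. Of the 38 subunits, 16 fell, 5 rose and 17 did not pass the test (the quasi-likelihood test of edgeR, p-values adjusted after Benjamini and Hochberg over 20399 genes, threshold 0.05). Over all genes tested, 30.1% were called, 13.8% as lower and 16.3% as higher, whereas 42.1% of the subunits were called lower and 13.2% higher. The median log2 fold change of the subunits was −0.072, beside −0.0019 over all genes tested. The fitted change was below 0 for 30 of the 38, against 50.4% of all genes tested. All 3 ZW27941 libraries lay below all 3 DMSO libraries for 19 subunits and above them for 6, which compares with 19.9% and 21.7% of all genes tested, and with 41.6% in either direction. The changes were small: the fitted log2 fold changes of the subunits ran from −0.36 (NDUFV2) to 0.18 (NDUFC2, which did not pass the test). These are bulk samples, in which fewer cells of a type and less RNA per cell cannot be told apart. Leaving out 1 library at a time gave 11 to 17 subunits lower and 3 or 4 higher. The lowest number lower, 11, was without DMSO replicate 1, and 3 were higher without DMSO replicate 1, 2 or 3 or without ZW27941 replicate 3. With upper quartile normalization, which moved the median of all genes to −0.025, the split was 21 lower and 2 higher.

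**Figure D1:**
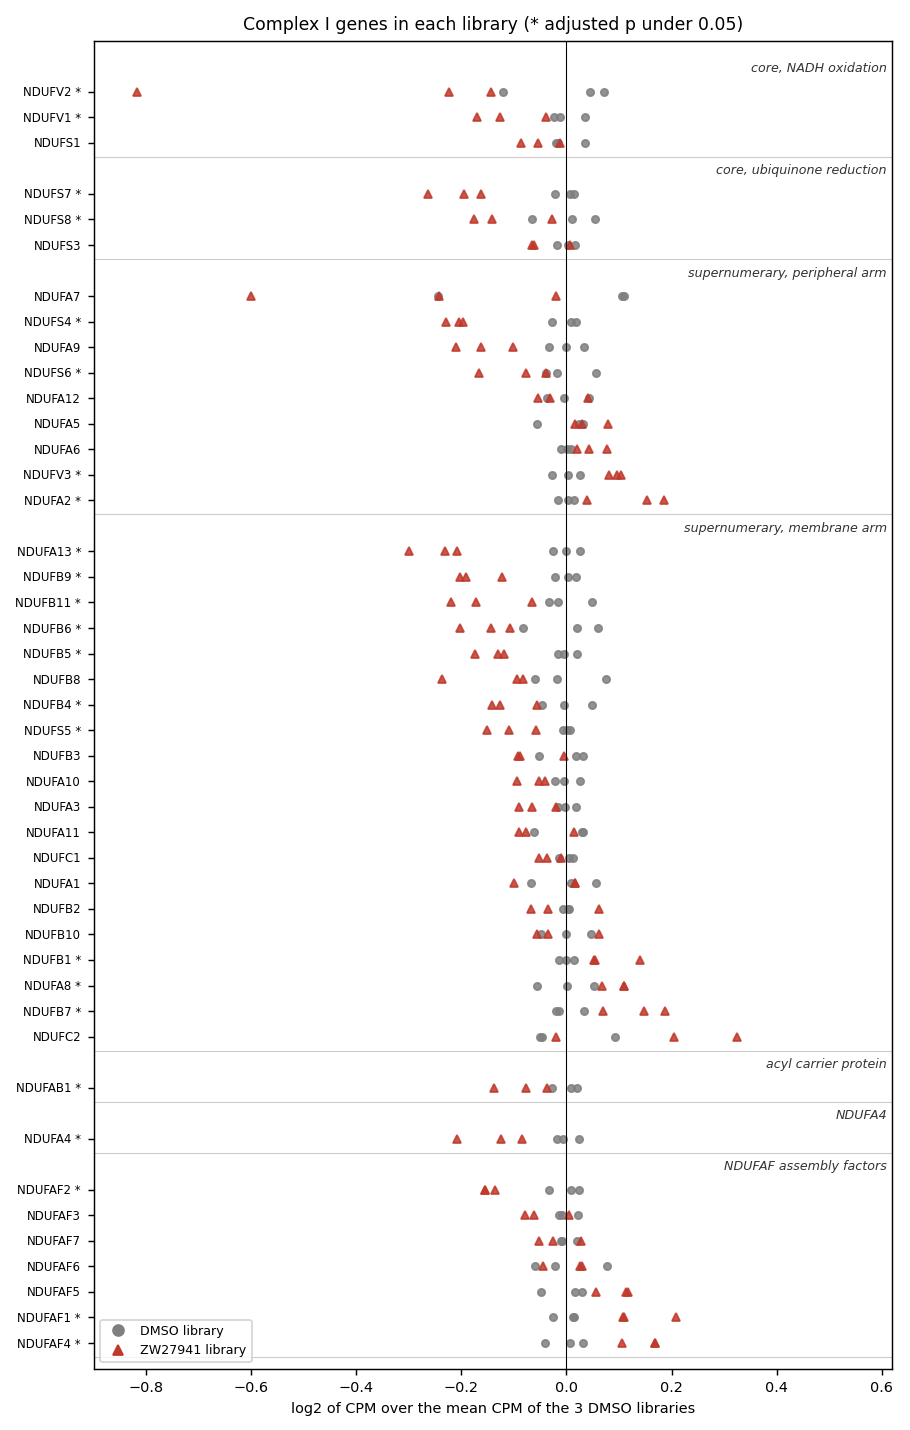
Level of complex I genes in each library, as log2 of its CPM over the mean CPM of the 3 DMSO libraries (horizontal axis), with DMSO libraries as grey circles and ZW27941 libraries as red triangles. Genes are grouped by role, and an asterisk marks an adjusted p under 0.05. Red triangles lie left of 0 for most core subunits, for NDUFAB1 and for NDUFA4, and on both sides of it for the other roles.

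Among the 7 nuclear core subunits, 5 fell, 0 rose and 2 did not pass the test, with a median log2 fold change of −0.11 and all 7 means lower on ZW27941. That is 71.4% lower and 0% higher, beside 13.8% lower and 16.3% higher over all genes tested. At an unadjusted p under 0.05, edgeR also had 5 lower and 0 higher, and DESeq2 called 5 lower and 0 higher. NDUFS7, which holds the last iron-sulfur cluster before ubiquinone, was at 81.04, 82.69 and 83.05 CPM in DMSO and at 71.82, 68.55 and 73.48 CPM on ZW27941. The groups were well apart, with the highest ZW27941 library below the lowest DMSO library. NDUFS7 fell by 13.3% in mean CPM (82.3 ± 1.07 to 71.3 ± 2.51, SD, n = 3), a log2 fold change of −0.21 (SE 0.028, edgeR adjusted p = 8.16e-06). In GENCODE v29, 37.9% of the exonic bases of NDUFS7 lie under exons of genes on the opposite strand, and the strand setting of the counting is not given, so that reads of these genes cannot be told apart here. NDUFS7 passed the threshold in all 14 alternatives, which used other scalings, DESeq2, no filter on low counts, a term for the replicate number, corrections for length and GC content or for pseudogene reads, or left out each of the 6 libraries in turn. The correction for length and GC content is void as a check, since these were known for 79% of genes tested, under the 80% needed.

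NDUFS8 and NDUFS3 are further core subunits on the way to ubiquinone. NDUFS8, a carrier of iron-sulfur clusters, was at 27.44, 26.61 and 25.24 CPM in DMSO and at 23.96, 23.38 and 25.94 CPM on ZW27941. The groups overlapped, since ZW27941 replicate 3 lay above DMSO replicate 3. The log2 fold change was −0.11 (edgeR adjusted p = 0.0307). This call was lost without DMSO replicate 1 (adjusted p = 0.162), DMSO replicate 2 (0.0949), ZW27941 replicate 1 (0.107) or ZW27941 replicate 2 (0.161), and over all alternatives the edgeR or DESeq2 adjusted p ran from 0.00125 to 0.162. NDUFS3 did not pass the test (log2 fold change −0.039, edgeR adjusted p = 0.299).

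At the NADH end, NDUFV1 and NDUFV2 fell and NDUFS1 did not pass the test. NDUFV1, which binds FMN and NADH, was at 178.2, 184.1 and 176.7 CPM in DMSO and at 164.6, 159.7 and 174.8 CPM on ZW27941. The groups did not overlap, but ZW27941 replicate 3 came close to the DMSO range. Its log2 fold change was −0.11 (edgeR adjusted p = 0.00608). The call was lost without DMSO replicate 2 (adjusted p = 0.0512) or ZW27941 replicate 2 (adjusted p = 0.0637), within a range from 1.92e-05 to 0.0637 over the edgeR and DESeq2 alternatives. NDUFV2, an iron-sulfur subunit next to NDUFV1, had few reads, at 2.261, 2.016 and 2.303 CPM in DMSO and 1.986, 1.879 and 1.245 CPM on ZW27941. All 3 ZW27941 libraries were lower, by the most in replicate 3. Its log2 fold change of −0.36 (SE 0.12, edgeR adjusted p = 0.031) was the lowest of the subunits, and without ZW27941 replicate 3 it was −0.18 (adjusted p = 0.188). Without DMSO replicate 1 or 3 the edgeR adjusted p was 0.1 and 0.103, and over all alternatives it ran from 0.0027 to 0.188. In GENCODE v29, 82.9% of the exonic bases of NDUFV2 are shared with another gene on its strand, and the pseudogene NDUFV2P1 was at 1.95 ± 0.067 CPM (SD, n = 3) in DMSO, so that the counts of NDUFV2 are uncertain. NDUFS1, the largest of the iron-sulfur subunits, had a log2 fold change of −0.050 (edgeR adjusted p = 0.165). With upper quartile normalization its edgeR adjusted p was 0.0373, and over the 14 alternatives it ran to 0.47. With length and GC trends removed, a void check, the edgeR adjusted p of NDUFS1 was 0.0155.

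The 9 supernumerary subunits of the peripheral arm moved in both directions. NDUFS4 and NDUFS6 fell, NDUFA2 and NDUFV3 rose, and NDUFA5, NDUFA6, NDUFA7, NDUFA9 and NDUFA12 did not pass the test, with a median log2 fold change of −0.014. These calls made up 22.2% in each direction, beside 13.8% lower and 16.3% higher over all genes tested. NDUFS4, a subunit whose loss is a known cause of Leigh syndrome, was at 32.07, 31.09 and 31.89 CPM in DMSO and at 27.62, 27.03 and 27.48 CPM on ZW27941. The libraries of each group lay close together and the groups far apart. NDUFS4 fell by 13.6% in mean CPM, with a log2 fold change of −0.21 (SE 0.03, edgeR adjusted p = 1.41e-05). NDUFA2, a small subunit with a thioredoxin-like fold, was at 38.52, 38.02 and 38.84 CPM in DMSO and at 42.77, 39.53 and 43.73 CPM on ZW27941. All 3 ZW27941 libraries were higher, replicate 2 by the least. The log2 fold change of NDUFA2 was 0.13 (SE 0.033, edgeR adjusted p = 0.0055), and 24.1% of its exonic bases lie under exons of other genes on the opposite strand. NDUFV3 had a log2 fold change of 0.094 (edgeR adjusted p = 0.0162), which was lost without DMSO replicate 3 (adjusted p = 0.0822), without ZW27941 replicate 2 (0.0589) and with upper quartile normalization (0.0666). NDUFS6, a zinc-binding subunit, had one of −0.093 (edgeR adjusted p = 0.0317). Its call was lost without DMSO replicate 1 (adjusted p = 0.198), DMSO replicate 2 (0.0538) or ZW27941 replicate 2 (0.215) and with scaling by library size only (0.0588). Over all alternatives the adjusted p ran from 0.0104 to 0.0822 for NDUFV3 and from 0.00239 to 0.215 for NDUFS6. Of those that did not pass, NDUFA9 was nearest, with a log2 fold change of −0.16 (edgeR adjusted p = 0.054), and it passed in 7 of the 14 alternatives, including the fit without ZW27941 replicate 1 (0.0447). NDUFA7, at −0.26 (edgeR adjusted p = 0.172), passed in 1 of the 14 alternatives, without ZW27941 replicate 1, where it was −0.42 (adjusted p = 0.0466, of a range up to 0.57). The remaining 3 had log2 fold changes of −0.014 (NDUFA12), 0.042 (NDUFA5) and 0.047 (NDUFA6).

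In the membrane arm, 7 of the 20 supernumerary subunits fell, 3 rose and 10 did not pass the test, with a median log2 fold change of −0.060. The shares were 35% lower and 15% higher, beside 13.8% and 16.3% over all genes tested. NDUFB9, a subunit of the LYR family at the far end of the arm, was at 157.3, 155.6 and 152.9 CPM in DMSO and at 134.9, 136.1 and 142.7 CPM on ZW27941. Every ZW27941 library was below every DMSO library. NDUFB9 fell by 11.2% in mean CPM, a log2 fold change of −0.17 (SE 0.026, edgeR adjusted p = 3.53e-05), and 26% of its exonic bases lie under exons of TATDN1 on the opposite strand. NDUFB5, at 89.62, 88.95 and 91.15 CPM in DMSO, was at 79.7, 82.79 and 82.18 CPM on ZW27941. These groups did not overlap either. NDUFB5 fell, with a log2 fold change of −0.14 (SE 0.026, edgeR adjusted p = 0.000233). NDUFB11, which is encoded on the X chromosome, and NDUFS5, which faces the intermembrane space, followed with log2 fold changes of −0.15 (edgeR adjusted p = 0.00167) and −0.11 (edgeR adjusted p = 0.00458). For NDUFB11, 45.8% of the exonic bases lie under exons of RBM10 on the opposite strand. The others that fell were NDUFB6 (−0.15), NDUFB4 (−0.11) and NDUFA13 (−0.25), named here after their values were seen. Of these 7, NDUFB4 alone lost its call when a library was left out, with an edgeR adjusted p of 0.0625 without DMSO replicate 1, and that of NDUFA13, 44.1% of whose exonic bases are shared on its strand, went up to 0.0498.

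NDUFB7, NDUFA8 and NDUFB1 were the membrane-arm subunits that rose. NDUFB7, which faces the intermembrane space and is held together by disulfide bonds, was at 64.05, 66.4 and 64.27 CPM in DMSO and at 71.89, 68.11 and 73.89 CPM on ZW27941. The groups did not overlap, and ZW27941 replicate 2 was the nearest to DMSO. Its log2 fold change was 0.14 (SE 0.03, edgeR adjusted p = 0.0014), and it passed the threshold in all 14 alternatives. NDUFA8, a protein of the same fold, was at 35.22, 33.85 and 36.46 CPM in DMSO and at 37.97, 36.85 and 37.96 CPM on ZW27941, with a log2 fold change of 0.096 (edgeR adjusted p = 0.0239). The call was lost without DMSO replicate 1 (adjusted p = 0.055), DMSO replicate 2 (0.142), ZW27941 replicate 1 (0.0788) or ZW27941 replicate 3 (0.0519) and with upper quartile normalization (0.0882), and over all alternatives the adjusted p ran from 0.00458 to 0.142. NDUFB1, at 0.082 (edgeR adjusted p = 0.0482), kept its call in 5 of the 14 alternatives, with adjusted p from 0.0147 to 0.254, the highest without ZW27941 replicate 3. Among the 10 that did not pass, NDUFC2 had the highest log2 fold change, 0.18 (edgeR adjusted p = 0.12), and passed without ZW27941 replicate 2 (0.0259), whereas NDUFB8 had the lowest, −0.14 (edgeR adjusted p = 0.191). The other 8 (NDUFA1, NDUFA3, NDUFA10, NDUFA11, NDUFB2, NDUFB3, NDUFB10 and NDUFC1) lay between −0.061 and −0.0086. Of these, NDUFA10 and NDUFB3 passed without ZW27941 replicate 3 (edgeR adjusted p = 0.0489 and 0.0229).

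NDUFAB1 and NDUFA4 belong to neither arm list. NDUFAB1, the mitochondrial acyl carrier protein, works in fatty acid and iron-sulfur cluster synthesis as well as in complex I, and had a log2 fold change of −0.083 (edgeR adjusted p = 0.0401). It passed in 8 of the 14 alternatives, and the call was lost without DMSO replicate 1 (adjusted p = 0.135), DMSO replicate 3 (0.113), ZW27941 replicate 1 (0.0766) or ZW27941 replicate 2 (0.215), the last being the highest of all. NDUFA4, named for complex I but now placed in complex IV, was at 90.27, 88.45 and 87.71 CPM in DMSO and at 81.51, 76.85 and 83.73 CPM on ZW27941. Its groups did not overlap. NDUFA4 fell with a log2 fold change of −0.14 (SE 0.029, edgeR adjusted p = 0.00105). Without NDUFA4, 15 of 37 subunits were lower and 5 higher, with a median of −0.061.

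Of the 7 NDUFAF assembly factors, 1 fell, 2 rose and 4 did not pass the test, with a median log2 fold change of 0.0042. That is 14.3% lower and 28.6% higher, beside 13.8% and 16.3% of all genes tested. Whether assembly factors and subunits differed was not tested. NDUFAF4, which works with NDUFAF3 on the module around the ubiquinone site, was at 21.72, 20.66 and 21.34 CPM in DMSO and at 23.86, 22.86 and 23.87 CPM on ZW27941. All 3 ZW27941 libraries were above DMSO. NDUFAF4 rose by 10.8% in mean CPM, a log2 fold change of 0.15 (SE 0.033, edgeR adjusted p = 0.00178). NDUFAF1, part of the complex that builds the membrane arm with ECSIT and ACAD9, was at 25.25, 25.22 and 24.57 CPM in DMSO and at 26.93, 26.97 and 28.89 CPM on ZW27941. Again the groups were apart, with ZW27941 replicate 3 the highest. Its log2 fold change was 0.14 (SE 0.034, edgeR adjusted p = 0.00258). NDUFAF2, a paralog of the subunit NDUFA12 that acts late in assembly, was at 14.26, 13.86 and 14.42 CPM in DMSO and at 12.73, 12.73 and 12.91 CPM on ZW27941. It moved the other way, with no overlap. NDUFAF2 had a log2 fold change of −0.15 (SE 0.039, edgeR adjusted p = 0.00599). These 3 genes passed the threshold in all 14 alternatives, with adjusted p up to 0.0418. The other 4 had edgeR adjusted p from 0.13 to 0.949: NDUFAF5, a hydroxylase that acts on NDUFS7, was at 0.097, NDUFAF6 at 0.0042, NDUFAF7 at −0.017 and NDUFAF3 at −0.045 in log2 fold change. For NDUFAF3, 22.6% of the exonic bases lie under exons of DALRD3 on the opposite strand.

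The 12 assembly factors with other names were also mixed. Of these, 2 fell, 4 rose and 6 did not pass the test, with a median log2 fold change of 0.018. That is 16.7% lower and 33.3% higher, beside 13.8% and 16.3% of all genes tested. TMEM261 (now DMAC1), needed for the far end of the membrane arm, rose with a log2 fold change of 0.19 (edgeR adjusted p = 7.78e-05). TMEM70, which also serves the assembly of ATP synthase, rose by 0.15 on the same scale (edgeR adjusted p = 0.000916). C17orf89 (now NDUFAF8) and TMEM126B were the other two that rose, at 0.16 and 0.12. ACAD9 (−0.12), which acts with NDUFAF1, and NUBPL (−0.16), which delivers iron-sulfur clusters, fell. ACAD9 was at 67.34, 69.16 and 65.38 CPM in DMSO and at 61.75, 60.93 and 62.65 CPM on ZW27941, so that it and NDUFAF1 moved in opposite directions. Leaving out DMSO replicate 2 or 3 or ZW27941 replicate 1 left 1 of the 12 lower.

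**Figure D2:**
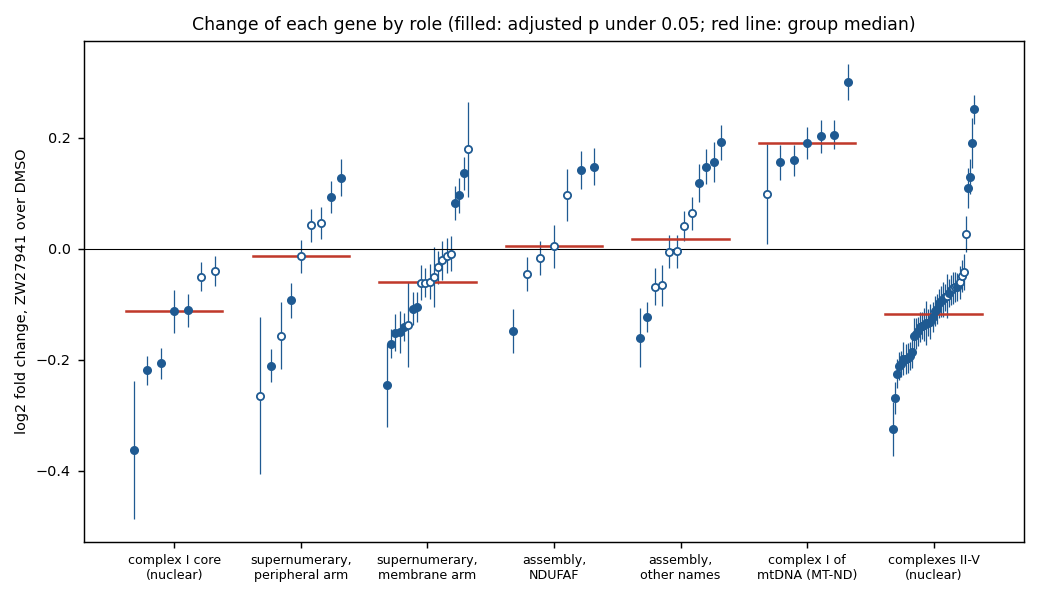
Fitted log2 fold change of each gene, ZW27941 over DMSO (vertical axis), with its standard error as a bar, by role; filled points had an adjusted p under 0.05 and red lines are the medians of the groups, with NDUFAB1 and NDUFA4 not drawn. The medians were −0.11 for the nuclear core, −0.014 and −0.060 for the supernumerary subunits of the peripheral and membrane arms, 0.0042 for the NDUFAF genes, 0.018 for assembly factors with other names, 0.19 for the MT-ND genes and −0.12 for complexes II to V.

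The core subunits encoded in mitochondrial DNA, which form the proton pumps of the membrane arm, moved in the opposite direction to the nuclear core. Of the 7 MT-ND genes, 6 rose, 0 fell and MT-ND6 did not pass the test, with a median log2 fold change of 0.19. The shares were 85.7% higher and 0% lower, beside 16.3% higher and 13.8% lower over all genes tested. At an unadjusted p under 0.05, edgeR had 6 higher and 0 lower, and DESeq2 called 6 higher and 0 lower. MT-ND3 was at 391.1, 356.2 and 356.9 CPM in DMSO and at 433.8, 460.8 and 465.5 CPM on ZW27941. Every ZW27941 library was above every DMSO library. It had a log2 fold change of 0.30 (edgeR adjusted p = 5.59e-07), and those of MT-ND1, MT-ND2, MT-ND4, MT-ND4L and MT-ND5 were 0.16, 0.21, 0.16, 0.19 and 0.20. MT-ND6, which lies on the other strand of mitochondrial DNA, was at 98.27, 114.3 and 121.4 CPM in DMSO and at 143.1, 121.8 and 92.43 CPM on ZW27941. The libraries of each group were widely spread and overlapped. The log2 fold change of MT-ND6 was 0.098 (edgeR adjusted p = 0.456). Without ZW27941 replicate 1 it changed sign to −0.057 (adjusted p = 0.612), without ZW27941 replicate 3 it was 0.25 (adjusted p = 0.000235), and with no filter on low counts it was 0.10 (adjusted p = 0.00139). Genes outside complex I were part of this rise: the summed level of all 15 protein-coding and ribosomal RNA genes of mitochondrial DNA went from 26540 ± 642 to 29360 ± 376 CPM (mean ± SD, n = 3 per group), higher by 10.6%. These transcripts take part in the library sizes by which every CPM is scaled, and their part in the lower levels of the nuclear subunits was not tested.

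Summed over the members, the 38 nuclear subunits were at 2278, 2255 and 2255 CPM in DMSO and at 2122, 2087 and 2192 CPM on ZW27941. All ZW27941 sums were below all DMSO sums, and replicate 3 was the nearest. The mean sum was lower by 5.70% (−5.70% from 2263 ± 13.3 to 2134 ± 53.5 CPM, SD, n = 3). For the 7 nuclear core subunits the change was −9.26%, from 745 ± 5.44 to 676 ± 18.9 CPM (SD, n = 3). The sums of the 7 NDUFAF genes overlapped between groups, at 158 ± 2.64 and 161 ± 2.31 CPM (SD, n = 3). The sums of the 7 MT-ND genes did not, and were higher by 13.3%, at 8621 ± 208 and 9764 ± 229 CPM (SD, n = 3).

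**Figure D3:**
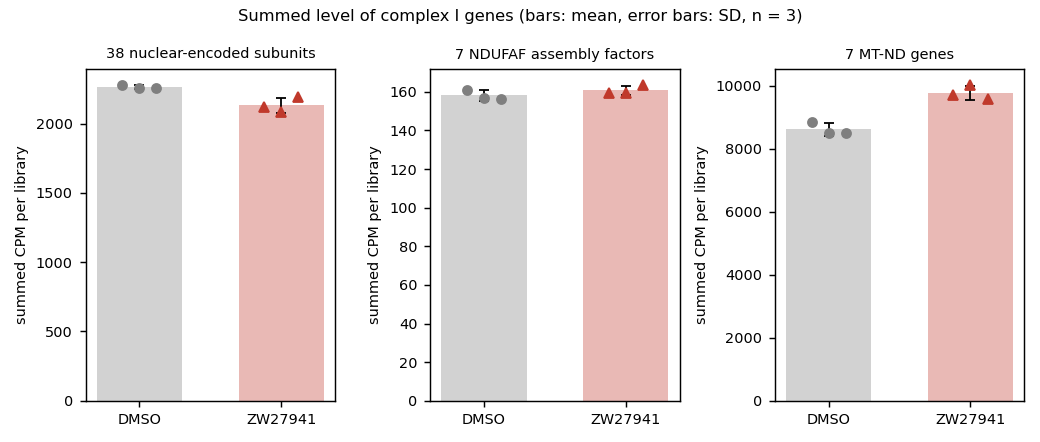
Summed CPM per library (vertical axes, each starting at 0) of the 38 nuclear subunits, the 7 NDUFAF assembly factors and the 7 MT-ND genes, with points for libraries, bars for means and error bars for SD (n = 3). ZW27941 libraries were all below DMSO for the nuclear subunits, mixed with DMSO for the NDUFAF genes and all above DMSO for the MT-ND genes.

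Nuclear subunits of the other respiratory complexes were mostly lower on ZW27941 as well. Of 40 nuclear subunits of complexes II to V, 29 fell (72.5%), 4 rose and 7 did not pass the test, with a median log2 fold change of −0.12, whereas 16 of 38 complex I subunits fell (42.1%). The difference between these shares was not tested. Over all genes tested, 13.8% were called lower and 16.3% higher. In complex II, which passes electrons from succinate to ubiquinone, 3 of 4 fell and 0 rose, led by SDHB (−0.20) and SDHC (−0.088). In complex III, 6 of 9 fell and 2 rose, and the pair with the lowest p moved in opposite directions, the iron-sulfur subunit UQCRFS1 at 0.25 and cytochrome c1, CYC1, at −0.27. In complex IV, 7 of 10 fell, among them COX6B1 (−0.20) and COX5A (−0.19), and 2 rose. The number that rose was 1 without DMSO replicate 1 or 3 or ZW27941 replicate 2 or 3, and 1 with upper quartile normalization. In complex V, the ATP synthase, 13 of 17 fell and 0 rose, with the catalytic subunit ATP5B at −0.21 and ATP5C1 at −0.19. At an unadjusted p under 0.05, edgeR had 16 lower and 0 higher in complex V and 3 lower and 0 higher in complex II, and DESeq2 called 14 and 3 lower and 0 higher.

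Among 13 tested genes of iron-sulfur cluster assembly, which supplies the clusters of complex I, 5 fell, 2 rose and 6 did not pass the test. The shares were 38.5% lower and 15.4% higher, beside 13.8% and 16.3% over all genes tested. The pair with the lowest p again moved in opposite directions, GLRX5 at 0.27 (edgeR adjusted p = 4.39e-06) and FDXR at −0.26 (edgeR adjusted p = 2.27e-05). Of the 5 tested dehydrogenases that reduce ubiquinone by other routes (DHODH, ETFDH, GPD2, SQRDL and PRODH), 0 fell and 0 rose by edgeR and by DESeq2, and 0 had an unadjusted p under 0.05 by edgeR. Without ZW27941 replicate 3, 1 of them was lower. Of 12 regulators of nuclear respiratory genes, 3 rose, 1 fell and 8 did not pass the test. That is 8.33% lower and 25% higher, beside the same 13.8% and 16.3%. PPARGC1A, a coactivator of respiratory genes, was low, at 1.249, 1.26 and 1.217 CPM in DMSO and at 2.263, 1.893 and 1.908 CPM on ZW27941. Every ZW27941 library was above DMSO, with a log2 fold change of 0.71 (edgeR adjusted p = 1.43e-05). GABPA, the factor that binds the ETS motif, had one of 0.13 (edgeR adjusted p = 0.000428). YY1 rose by 0.12 on the log2 scale and POLRMT, the mitochondrial RNA polymerase, fell by 0.098. NRF1 was at 0.058 and did not pass the test.

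Levels per kb of transcript differed widely between subunits. Among the 31 with no exon shared with another gene on their strand, the highest and the lowest were 28.8-fold apart. The lowest, NDUFV3, was at 7.59 CPM per kb, with a principal transcript of 4676 bases. A single transcript gave the length of each gene, so that these levels depend on that choice. Divided by the length of the principal transcript in GENCODE v29, NDUFB9 was highest, at 218 ± 3.10 CPM per kb (SD, n = 3) in DMSO, followed by NDUFS5 at 160 ± 0.709 and NDUFB4 at 159 ± 5.30 CPM per kb (SD, n = 3), which overlapped each other. NDUFA12 at 124 ± 3.45 and NDUFB7 at 122 ± 2.45 CPM per kb (SD, n = 3) were lower and overlapped each other. In all, 15 of 44 pairs of neighbours overlapped in their DMSO libraries. The NDUFAF genes lay low, with a median of 14.4 CPM per kb and a range of 1.80 to 19.7, beside a median of 55.5 and a range of 7.59 to 218 CPM per kb for the 31 subunits with no exon shared on their strand. The 7 subunits that do share exonic bases with another gene on their strand were NDUFV2 (82.9%), NDUFA7 (75.9%), NDUFB8 (71.7%), NDUFA11 (67%), NDUFA13 (44.1%), NDUFC2 (17.1%) and NDUFA9 (11.8%). Their median was 2.36 CPM per kb, with a range of 0.772 to 16.1, and they were the 7 subunits with the fewest reads. HTSeq tallied 2.691% to 2.796% of reads per library as ambiguous between features, and these were left out of the counts. Whether reads on these shared exons were among them is not given, so the levels of these 7 are uncertain. Among the 31 subunits with no such exon, 14 were lower and 5 higher, with a median log2 fold change of −0.061. Of the 7 with shared exons, 2 were lower and 0 higher, with a median of −0.16. At an unadjusted p under 0.05, edgeR had 3 of the 7 lower and 1 higher. Across the 38 subunits, Spearman's rho between the mean CPM in DMSO and the log2 fold change was 0.00186, and across the 31 with no shared exon it was −0.354. The points share the same 6 libraries, and across all 20399 genes tested rho was 0.0508.

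**Figure D4:**
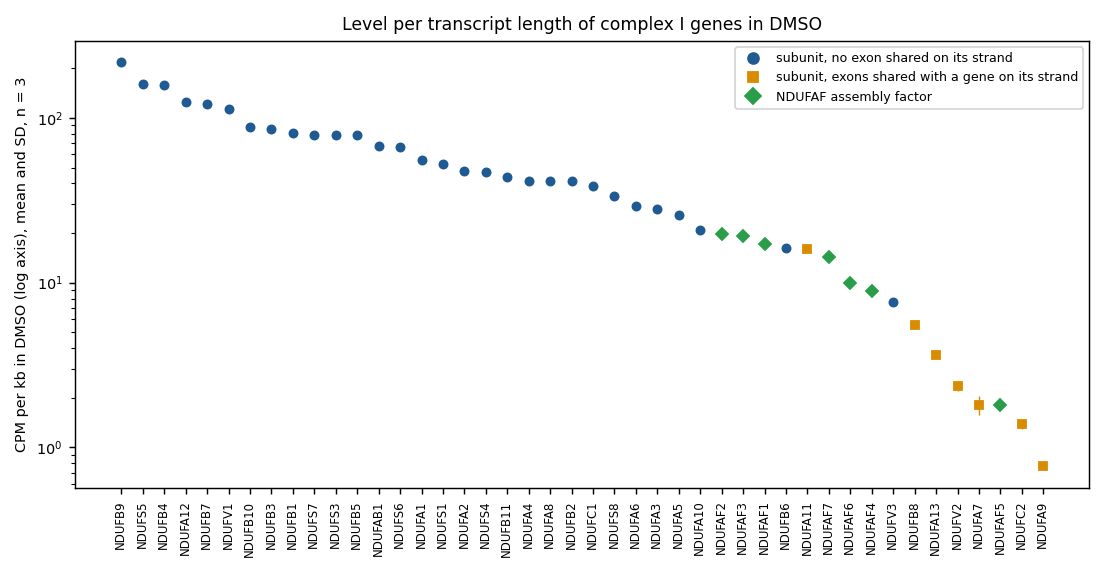
Level per transcript length of complex I genes in DMSO, in CPM per kb on a log axis (mean and SD, n = 3), in order of level. Blue circles are subunits with no exon shared on their strand, orange squares the 7 subunits with shared exons, which lay between 0.772 and 16.1 CPM per kb, and green diamonds the 7 NDUFAF genes.

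The subunits with and without a motif match in the promoter were set side by side. Of the 7 subunits with a YY1 match (NDUFA3, NDUFA6, NDUFA7, NDUFA9, NDUFA12, NDUFS4 and NDUFS7), 2 fell and 0 rose, with a median log2 fold change of −0.16. This median is the value of NDUFA9, which did not pass the test. NDUFA9 and NDUFA7 are among the subunits with shared exons, whose levels are uncertain. Of the 25 without a match, 9 fell and 5 rose, with a median of −0.050. Of the 6 with an NRF1 match, 3 fell and 1 rose, with a median of −0.10. Of the 26 without it, 8 fell and 4 rose, with a median of −0.055. An ETS match was found for 5 subunits, of which 1 fell and 1 rose, with a median of −0.039. Of the 27 without it, 10 fell and 4 rose, with a median of −0.061. Whether promoters with and without a match differed was not tested.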

How the data were processed

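RNA-seq of 3 DMSO and 3 ZW27941 libraries of MOLM13 cells was used. The authors deposited raw read counts per gene symbol for each library, made with HTSeq 2.0.3 after alignment, with no normalization. The submitters' processing notes also name HISAT2, SAMtools 1.19.2 and hg38, and the annotation release and strand setting are not given in the sources used here. The 5 HTSeq tallies of unassigned reads (37.42% to 39.76% of reads) were left out of library sizes and tests. The test was run in edgeR 4.0.16 under R 4.3.3 (TMM, filterByExpr, quasi-likelihood test, no covariate), with p-values adjusted by the Benjamini-Hochberg method over 20399 genes at a threshold of 0.05. CPM used TMM factors. The steps were tested on simulated counts. The members and gene lists were chosen with earlier results of these data known. Genes named were all NDUFAF genes, the 7 nuclear core subunits, NDUFAB1, NDUFA4, the 4 supernumerary subunits of each arm with the lowest p in each direction, every MT-ND gene and, in each other list, the 2 called members with the lowest p, with others added after their values were seen. Some genes that enter the counts are not reported here by name. Symbols were matched to GENCODE v29 (GRCh38) for lengths and overlaps (45 of 45) and to RefSeq promoters of GRCh38.p14 (38 of 45), and NDUFAF8 was found under its older symbol. Alternatives were RLE, upper quartile and library size scaling, DESeq2 1.42.0, no filter on low counts, each library left out, the replicate number as a block, removal of length and GC trends, and the addition of pseudogene reads. Counts without NDUFA4 or without subunits that share exons were chosen after seeing the data.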

Additional observations from a re-analysis of the deposited data

Results flagged for a closer look

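The pseudogene NDUFS5P5, which is outside the complex I genes compared, was higher in every ZW27941 library than in every DMSO library, with 9, 4 and 7 counts in DMSO and 15, 16 and 17 on ZW27941. Its mean was 0.045 CPM in DMSO and 0.1002 CPM on ZW27941 (edgeR adjusted p = 0.0579), whereas NDUFS5 itself was lower on ZW27941. Of the 59 pseudogenes of complex I genes in the table, it was the 1 with at least 10 counts in all and no overlap in this direction. Over all genes tested, 21.7% had every ZW27941 library above every DMSO library. NDUFV2P1, which had more counts, was lower in every ZW27941 library (edgeR adjusted p = 0.072). Neither pseudogene passed the threshold.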

How the results depend on the processing

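Of the 24 complex I genes called, 15 passed the threshold in all 14 alternatives (10 subunits lower, 2 higher and 3 NDUFAF genes), and none of the 24 changed sign. The count of subunits lower was 14 to 21 over the alternatives other than leaving out a library. With upper quartile normalization, 2 subunits and 1 complex IV gene were higher, NDUFAF6 changed sign to −0.019 (log2 fold change, not called in any alternative) and the medians of subunits and NDUFAF genes were −0.096 and −0.019. Relative to the median of all genes the subunits were at −0.070 in that setting and in the reported analysis. Leaving out 1 library at a time gave 3 to 4 subunits higher, 1 to 2 complex IV genes higher, 1 to 2 assembly factors with other names lower and 0 to 1 other dehydrogenases lower. The median of the NDUFAF genes then ran from −0.021 to 0.045, the log2 fold change of NDUFAF6 from −0.025 to 0.045 (−0.0059, −0.025, −0.0097 and −0.010 without DMSO replicate 2, DMSO replicate 3, ZW27941 replicate 2 and ZW27941 replicate 3) and that of MT-ND6 from −0.057 to 0.25. Samples with the same replicate number did not deviate together (correlations of −0.0122, 0.0118 and 0.0169), so the numbers do not pair them, and the fit with the replicate block had 17 subunits lower and 4 higher, with 23 of the 24 calls shared. Not every library correlated best with its own number. The cause of these changes was not tested. Length and GC content were known for 79% of genes tested, under the 80% needed, so that the check of these trends over all genes is void. It is still counted among the 14 alternatives. None of the 24 calls was lost in it, so the 15 genes do not depend on it. Depth limits genes at a few CPM, of which NDUFV2 and NDUFA7 had standard errors of 0.12 and 0.14.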
